A study of Mus musculus with 12 samples.

Results

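Expression of 9 genes of the glucocorticoid and corticotropin-releasing hormone stress axis was examined in the medial prefrontal cortex (mPFC) of mice after chronic social defeat (CSD) and of homecage (HC) mice. The genes were chosen by their role in the axis, with earlier results of these data known, and all 9 of them are on the array, each with 1 probe set. They are the glucocorticoid receptor (Nr3c1), the mineralocorticoid receptor (Nr3c2), the receptor-regulated genes Fkbp5, Sgk1 and Tsc22d3, the glucocorticoid-activating enzyme Hsd11b1, and corticotropin-releasing hormone (Crh) with its receptor Crhr1 and its binding protein Crhbp. Of the 9 genes 8 passed the filter on low values and are among the 17656 genes measured. Crh did not pass.

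Stress makes the hypothalamus release corticotropin-releasing hormone, which drives the pituitary and then the adrenal cortex to secrete glucocorticoids, in mice mainly corticosterone. Corticosterone crosses into the brain and binds the mineralocorticoid and glucocorticoid receptors, which move to the nucleus, bind DNA at glucocorticoid response elements and switch target genes on or off. In the cortex Crh is also made by some inhibitory interneurons, and its receptor and binding protein act locally there.

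The CSD group held 6 male C57BL/6 mice, which were defeated by an aggressive CD-1 male for 5 min per day over 14 days and housed beside it between bouts, and which had been included on the basis of social interaction and light/dark tests. The HC group held 6 male C57BL/6 mice housed in groups without defeat, and the labels name no mutant allele and no drug for either group. The mPFC was taken 24 h after the last defeat from saline-perfused brains, with the white matter of the forceps minor as its border. RNA of each mouse (200 ng) went onto 1 Affymetrix Mouse Gene ST array, so that the 12 arrays stand for 12 mice.

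Values are log2 array signals, normalized by the authors with the robust multi-array average (RMA), which corrects background, equalizes the arrays and summarizes the probes of a gene. Values under the system noise of 5.75 were set to it. A difference of 1 is a doubling of signal, and levels cannot be compared between genes because each has its own probes. Array medians lay between 7.54 and 7.63 in CSD and between 7.50 and 7.69 in HC mice, and within a group the arrays correlated at a median of 0.991 to 0.996. HC replicates 2 and 6 had the highest and the lowest array median. They also had the lowest correlations in their group and the lowest limma array weights (0.26 and 0.40), and both were kept. The sample numbers in the labels put all HC mice before all CSD mice. Whether the arrays were run in that order is not given. If they were, array order and group cannot be told apart. Of the marker lists, that of oligodendrocytes moved most. All 11 measured markers were lower in CSD at an unadjusted p under 0.05 in limma, against 6.52% of all genes (median log2 fold change -0.58). The mean of the list ranged over 9.01 to 9.54 in CSD and 9.59 to 10.13 in HC mice. In bulk tissue, fewer cells of a type and less RNA per cell cannot be told apart.

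Sequence was examined first for the receptor-regulated genes, since glucocorticoid receptors bind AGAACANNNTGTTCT, a palindrome of the hexamer AGAACA. Promoter windows of RefSeq genes (GRCm38.p6, 250 bases before to 50 after each annotated start) were searched on both strands, and the hexamer is contained in the palindrome. Of 32817 windows 19% held the hexamer (21.3% of genes), and 3 windows (0.00914%) held the full palindrome. One of these 3 belongs to Sgk1, which has 6 windows, 3 of them with the hexamer. Tsc22d3 has 3 windows, 1 of them with the hexamer, while the single windows of Fkbp5, Nr3c2, Hsd11b1, Crhr1 and Crhbp hold none. Of 21 other genes known to respond to glucocorticoids and with a window, 0 held the full palindrome and 2 the hexamer. Nr3c1 and Crh were not matched in the table used. The 250 bases before the start are given for Sgk1 (chr10:21993640-21993889, plus strand), Tsc22d3 (chrX:140600523-140600772, minus strand) and Fkbp5 (chr17:28486150-28486399, minus strand), to set the genes whose values are compared most closely here side by side. Each runs 5′ to 3′ on the strand of its gene, with the palindrome and each hexamer in capitals, on the other strand as TGTTCT. A match describes the letters only, and no binding was measured.
Sgk1: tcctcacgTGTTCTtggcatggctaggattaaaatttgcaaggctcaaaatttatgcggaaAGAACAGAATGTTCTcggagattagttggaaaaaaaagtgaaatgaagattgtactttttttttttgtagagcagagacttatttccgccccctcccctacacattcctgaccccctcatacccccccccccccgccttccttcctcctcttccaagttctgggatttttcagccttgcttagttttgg
Tsc22d3: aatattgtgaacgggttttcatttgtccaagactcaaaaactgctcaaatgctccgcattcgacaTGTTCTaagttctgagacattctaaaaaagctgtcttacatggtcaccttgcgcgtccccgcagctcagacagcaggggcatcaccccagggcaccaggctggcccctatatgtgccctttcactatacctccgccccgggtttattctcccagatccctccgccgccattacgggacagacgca
Fkbp5: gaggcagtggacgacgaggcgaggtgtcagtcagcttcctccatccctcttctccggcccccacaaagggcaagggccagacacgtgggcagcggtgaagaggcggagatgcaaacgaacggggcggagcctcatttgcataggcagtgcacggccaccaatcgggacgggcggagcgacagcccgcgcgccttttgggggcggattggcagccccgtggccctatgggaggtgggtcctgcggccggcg
In the Sgk1 window the palindrome reads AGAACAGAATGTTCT at chr10:21993701-21993715 and begins 189 bases before the start, with a further hexamer upstream of it. The Tsc22d3 hexamer lies 185 bases before its start. In Fkbp5, receptor binding is known mainly from introns far from the start, which the window does not cover.

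Among the 8 tested genes, Sgk1 was lower in CSD mice and Fkbp5 was higher by about the same amount. Both were more widely spread in CSD than in HC mice. The other tested genes differed by less than 0.10 on the log2 scale, and Crh lay under the system noise. No gene passed an adjusted p of 0.05 with a fold change of at least 1.2, and neither did any other probe set (0 of 29838 tested, 0%). At an unadjusted p under 0.05, 1 of the 8 tested genes was lower, against 5.08% of all probe sets, and 0 were higher, against 3.35%. With a fold change of at least 1.2 added, 1 gene was lower (background 0.62%) and 0 were higher (background 0.741%). For 0 of the 8 genes were the CSD and HC values entirely apart, against 0.814% of probe sets. A count of 1 of 8 is too small to be set apart from these background shares.

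**Figure D1:**
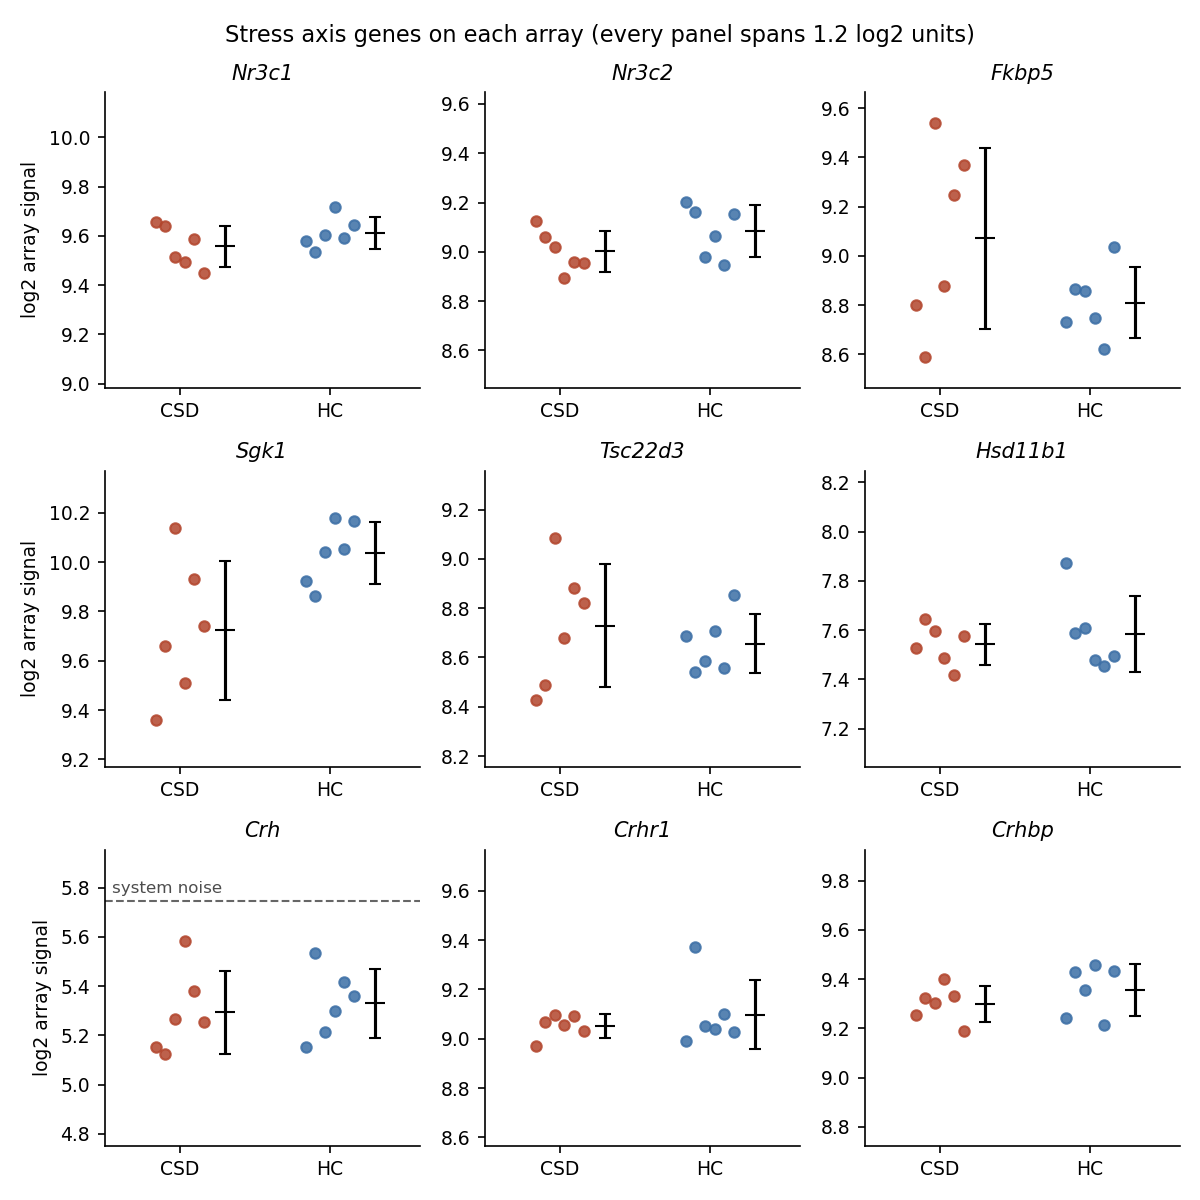
Log2 array signal of the 9 genes in each mouse, CSD left and HC right, with the mean and SD (n = 6 each) beside the points and every panel on a scale of the same span. Sgk1 is lower in most CSD mice, Fkbp5, Sgk1 and Tsc22d3 are widely spread in CSD mice, and Crh lies under the system noise of 5.75 (dashed) on all arrays.

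The differences of both receptors between the groups were small. Nr3c1, on chromosome 18, encodes the glucocorticoid receptor, which is bound when hormone is high, as under stress. Its lowest, median and highest values were 9.45, 9.55 and 9.66 in CSD mice and 9.53, 9.60 and 9.72 in HC mice. Of the CSD mice 3 lay below all HC mice and the others lay among them. The difference was -0.05 (SE 0.05, 95% interval -0.15 to 0.04, limma adjusted p = 0.822, exact permutation p = 0.221), an interval that leaves room for a fold of 0.90 to 1.03.

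Nr3c2, on chromosome 8, encodes the mineralocorticoid receptor, which binds corticosterone with higher affinity and is occupied at resting levels. Values ran from a lowest of 8.90 over a median of 8.99 to a highest of 9.13 in CSD mice, and from 8.95 over 9.11 to 9.20 in HC mice. The groups overlapped, with 1 CSD mouse below all HC mice and 5 of 6 CSD mice below the HC mean. The difference of -0.08 (SE 0.05, 95% interval -0.20 to 0.04) was not significant by either test (limma adjusted p = 0.763, exact permutation p = 0.165).

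The 3 receptor-regulated genes did not move together between the groups. Sgk1, on chromosome 10, encodes a kinase that is rapidly induced by glucocorticoids and acts on ion channels and transporters. Its lowest, median and highest values were 9.36, 9.70 and 10.14 in CSD mice and 9.86, 10.05 and 10.18 in HC mice. In words, 4 of the 6 CSD mice lay below every HC mouse, and the other CSD mice lay within the HC range. Sgk1 averaged 9.72 ± 0.28 in CSD and 10.04 ± 0.13 in HC mice (SD, n = 6 each), a difference of -0.31 (SE 0.11, 95% interval -0.56 to -0.06) or 0.805 times the HC signal. Limma gave an unadjusted p of 0.0175, which ranked 1132 of all probe sets, and an adjusted p of 0.460. In the two-sided exact permutation test p was 0.0346, where the smallest p that 6 against 6 mice allow is 0.00216. The lower oligodendrocyte markers moved in the same direction as Sgk1, and Sgk1 is also made by oligodendrocytes. Over the 12 mice, group means removed, Sgk1 and the mean of the oligodendrocyte list gave r = 0.378 (permutation p = 0.227, adjusted p = 0.880). Among HC mice alone r was 0.976 (exact permutation p = 0.00139, n = 6) and among CSD mice alone 0.12 (exact permutation p = 0.810, n = 6). The p-values within a group are unadjusted. The difference between the correlations of HC and CSD mice, and the part of oligodendrocytes in the lower Sgk1 signal, was not tested.

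Fkbp5, on chromosome 17, encodes a co-chaperone that lowers the hormone affinity of the glucocorticoid receptor and is itself induced by it, a short negative feedback loop. Its lowest, median and highest values were 8.59, 9.06 and 9.54 in CSD mice and 8.62, 8.80 and 9.04 in HC mice. Of the CSD mice 3 lay above all HC mice and 1 lay below all of them. Fkbp5 averaged 9.07 ± 0.37 in CSD and 8.81 ± 0.14 in HC mice (SD, n = 6 each), a fold of 1.198. The difference of 0.26 (SE 0.15, 95% interval -0.05 to 0.58) was not significant by either test (limma unadjusted p = 0.0966, adjusted p = 0.693, exact permutation p = 0.139). Without CSD replicate 6, the lowest CSD mouse, the difference was 0.36 with an unadjusted limma p of 0.0172, and without CSD replicate 7, the highest, it was 0.17.

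Tsc22d3, on the X chromosome, encodes the glucocorticoid-induced leucine zipper protein (GILZ), an anti-inflammatory regulator. In CSD mice the lowest, median and highest values were 8.43, 8.75 and 9.09, and in HC mice 8.54, 8.64 and 8.85. CSD mice lay both above and below the whole HC range. The means were 8.73 ± 0.25 in CSD and 8.66 ± 0.12 in HC mice (SD, n = 6 each), and the difference of 0.07 (SE 0.10, 95% interval -0.15 to 0.30) had a limma adjusted p of 0.897 and an exact permutation p of 0.528.

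**Figure D2:**
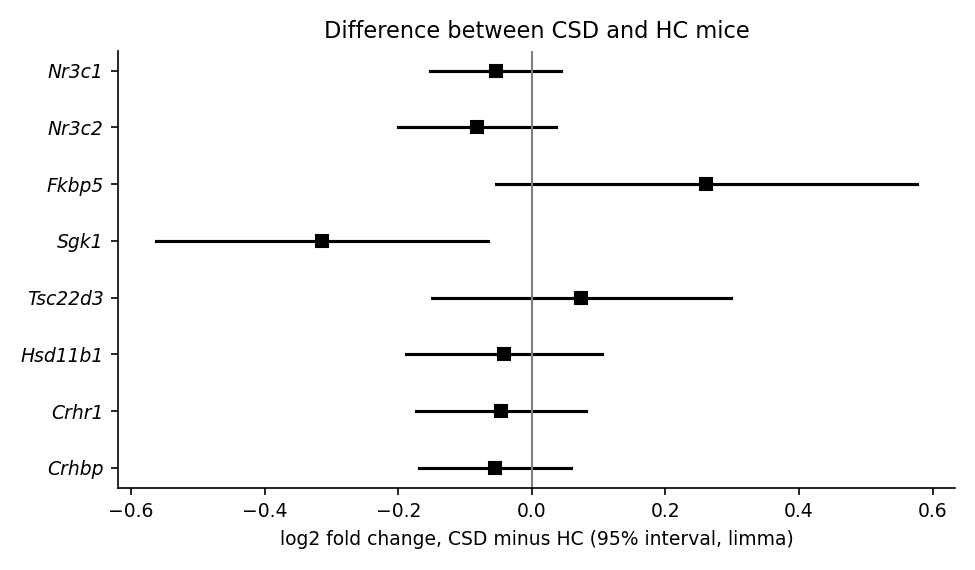
Log2 fold change of CSD minus HC (squares) with its 95% interval from limma (lines) for the 8 genes tested, 6 mice per group. The interval lies wholly under 0 for Sgk1 (-0.56 to -0.06) and includes 0 for the other genes.

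All 3 receptor-regulated genes were more widely spread among CSD than among HC mice. The SD in CSD was 2.57 times that in HC mice for Fkbp5, 2.21 times for Sgk1 and 2.09 times for Tsc22d3, whereas the median ratio over 17628 genes was 0.724 and 3.01% of genes had a ratio of at least 2. The ratio was 1.33 for Nr3c1 and between 0.338 and 0.785 for Nr3c2, Hsd11b1, Crhr1 and Crhbp. These ratios are given as a description and were not tested.

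The spread was shared. CSD replicate 7 was first of the 12 mice in Fkbp5 and in Tsc22d3 and at rank 3 in Sgk1, while CSD replicate 2 was last in Tsc22d3 and in Sgk1 and CSD replicate 6 was last in Fkbp5. Once the group means were removed, Fkbp5 and Tsc22d3 rose and fell together over the 12 mice (Pearson's r = 0.873, permutation p = 0.00038, adjusted p = 0.0104; Spearman's rho = 0.811, adjusted p = 0.0461, over 36 relations). Without the 2 mice farthest from the median of Fkbp5 the value was r = 0.762. Sgk1 and Tsc22d3 gave r = 0.853 (permutation p = 0.00058, adjusted p = 0.0104) and rho = 0.811 (adjusted p = 0.0461), and r = 0.633 without the 2 mice farthest in Sgk1 (permutation p = 0.0513). Fkbp5 and Sgk1 gave r = 0.691, which did not pass the adjustment (permutation p = 0.0131, adjusted p = 0.118), and 0.503 without CSD replicate 7 (permutation p = 0.114).

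Within CSD mice alone the correlation of Fkbp5 and Tsc22d3 was 0.933 (exact permutation p = 0.0139) and that of Sgk1 and Tsc22d3 was 0.902 (exact permutation p = 0.0208, n = 6). Within HC mice alone they were 0.567 (exact permutation p = 0.260) and 0.627 (exact permutation p = 0.179, n = 6). Whether the correlations differed between the groups was not tested. With the array median, group means removed, r was 0.228 for Fkbp5, 0.0856 for Sgk1 and 0.0441 for Tsc22d3 (n = 12).

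**Figure D3:**
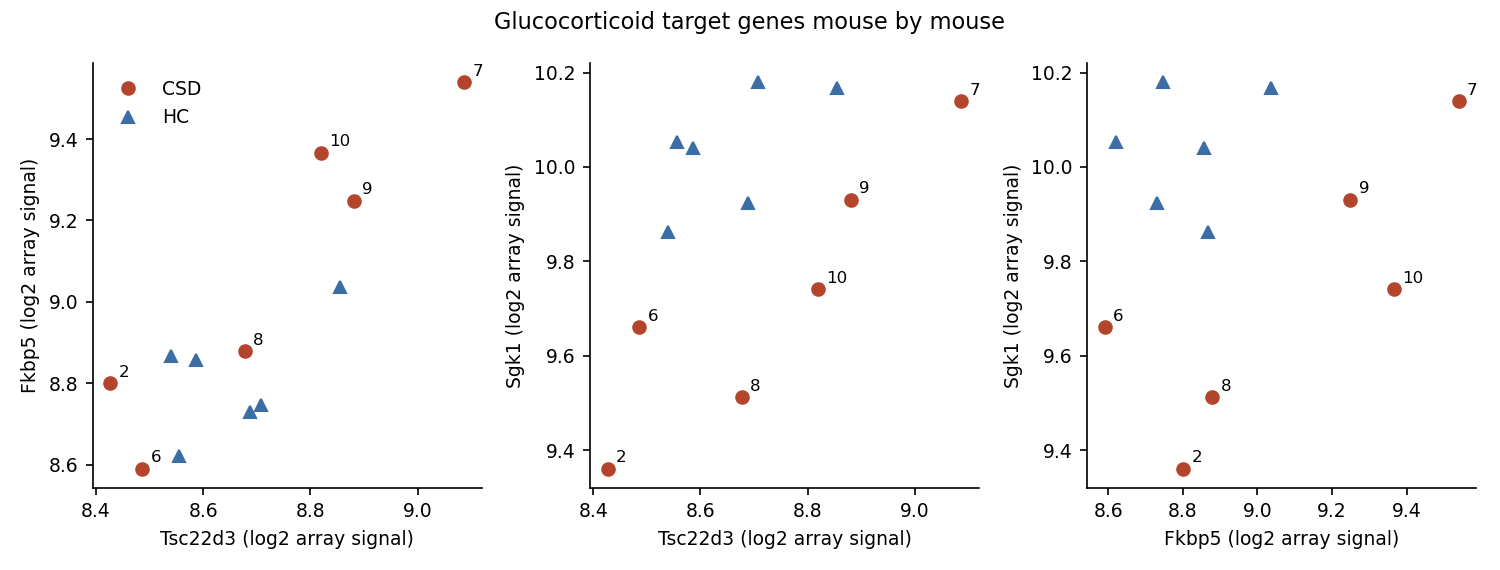
Log2 array signal of Fkbp5 and Sgk1 against Tsc22d3, and of Sgk1 against Fkbp5, with 1 point per mouse (CSD circles with their replicate number, HC triangles). The genes rise together among CSD mice, and at a like Tsc22d3 signal the Sgk1 signal of CSD mice is under that of HC mice.

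Sgk1 varied with Tsc22d3 from mouse to mouse, yet sat lower relative to it in CSD. The Sgk1 value minus the Tsc22d3 value of the same array had a lowest, median and highest of 0.83, 0.99 and 1.17 in CSD mice and 1.24, 1.39 and 1.498 in HC mice. Every CSD mouse lay below every HC mouse, and the means differed by -0.39. This was the only 1 of the 28 pairs of tested genes for which the groups were apart. The comparison was chosen after the values had been seen and has no test. That Sgk1 is among the genes apart below is therefore no further support. Set against Tsc22d3 in the same way, 11 of 17655 genes (0.0623%) were apart, all 11 lower in CSD, and beside Sgk1 they were Ermn, Il33, Gjc3, Cpm, Cyp2j12, Tmbim1, Ppp1r14a, Pmp22, Txnip and F3. Of these the myelin gene Ermn is on the oligodendrocyte list of 11 measured markers. Gjc3, a connexin, and Pmp22, a myelin protein, are known from myelinating cells but are not on that short list. Apart from Ermn, the genes, Gjc3 and Pmp22 included, were not sorted by the cells that make them in this tissue. Their relation to oligodendrocytes was not tested. Set against Fkbp5, 0.0453% of genes were apart, with Sgk1 not among them: its value minus that of Fkbp5 overlapped between the groups. Without subtraction, 0.814% of probe sets were apart. A subtracted gene adds its own spread to genes that do not vary with it. The small shares are therefore no measure of how unusual Sgk1 is.

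The genes most like Sgk1, Fkbp5 and Tsc22d3 over the 12 mice were ranked by Pearson's r after removal of the group means, among 17655 genes. For Sgk1 they were Klf9, a transcription factor induced by glucocorticoids (r = 0.92), Arhgef3 (0.91) and Errfi1, an inhibitor of epidermal growth factor receptor signaling (0.91), with Tsc22d3 at rank 11 and Fkbp5 at rank 206. For Fkbp5 they were Smim3 (0.94), the glucose transporter Slc2a1 (0.91) and Pkp2, a desmosomal plakophilin (0.91), with Tsc22d3 at rank 18. For Tsc22d3 they were Sesn1, a stress-inducible sestrin (0.94), the sialyltransferase St8sia3 (0.93) and Sgms1, a sphingomyelin synthase (0.93), with Fkbp5 at rank 15 and Sgk1 at rank 28.

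**Figure D4:**
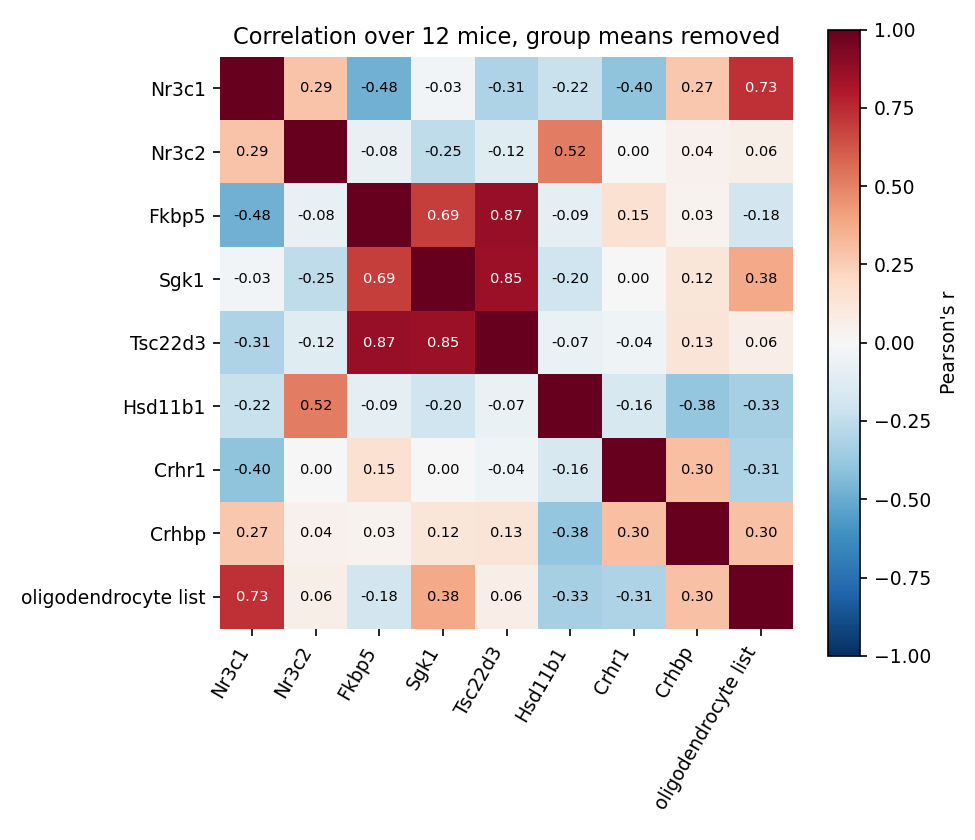
Pearson's r between the 8 tested genes and with the mean of the oligodendrocyte list, over 12 mice after removal of the group means (red positive, blue negative). Fkbp5, Sgk1 and Tsc22d3 form a block of 0.69 to 0.87, and Nr3c1 goes with the oligodendrocyte list at 0.73.

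No relation of a receptor level with these genes passed the adjustment. Nr3c1 gave r = -0.479 with Fkbp5, -0.03 with Sgk1 and -0.311 with Tsc22d3, and Nr3c2 gave -0.0772, -0.253 and -0.118 (adjusted permutation p of 0.696 or more for each of these). The value for Nr3c1 and Sgk1 pooled opposite signs: r was -0.349 in CSD mice alone (exact permutation p = 0.483) and 0.902 in HC mice alone (exact permutation p = 0.00972, n = 6 each), and the difference between them was not tested. Nr3c1 varied with the oligodendrocyte list mean (r = 0.734, permutation p = 0.00791, adjusted p = 0.0949; rho = 0.776, adjusted p = 0.0503), and neither value passed the adjustment.

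Hsd11b1, on chromosome 1, encodes the enzyme that regenerates active corticosterone inside cells. The lowest, median and highest values were 7.42, 7.55 and 7.64 in CSD mice and 7.46, 7.54 and 7.87 in HC mice. The CSD and HC values overlapped, and the highest value was that of HC replicate 1. The difference was -0.04 (SE 0.07, 95% interval -0.19 to 0.11, limma adjusted p = 0.915, exact permutation p = 0.652) and 0.02 without that mouse.

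In the corticotropin-releasing hormone system no difference was detected. The peptide Crh, on chromosome 3, gave no value above the system noise of 5.75 on any array: its deposited values had a lowest, median and highest of 5.12, 5.26 and 5.58 in CSD mice and 5.15, 5.33 and 5.54 in HC mice. The groups overlapped throughout (exact permutation p = 0.693), and values under the noise carry no fold change. A change in Crh was not detectable at this signal.

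Crhr1, on chromosome 11, encodes the main cortical receptor of the peptide. Its lowest, median and highest values were 8.97, 9.06 and 9.10 in CSD mice and 8.99, 9.05 and 9.37 in HC mice. The groups overlapped, with HC replicate 2 above all other mice. The difference was -0.05 (SE 0.06, 95% interval -0.17 to 0.08, limma adjusted p = 0.887, exact permutation p = 0.634). It was 0.01 without HC replicate 2, whose array also had the highest median. Over the 12 arrays, group means removed, Crhr1 varied with the array median (r = 0.907). HC replicate 2 was highest in both, and r without it was not computed.

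Crhbp, on chromosome 13, encodes the secreted protein that binds the peptide and limits its action. In CSD mice it had a lowest, median and highest value of 9.19, 9.31 and 9.40, and in HC mice of 9.21, 9.39 and 9.46. The CSD range lay almost wholly within that of HC mice. The difference of -0.06 (SE 0.05, 95% interval -0.17 to 0.06) had a limma adjusted p of 0.846 and an exact permutation p of 0.310.

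Other genes of the axis were taken from 7 pathway lists, and none of their members passed the adjustment in limma. For comparison, 42.9% of all 17656 measured genes were higher and 57.1% lower in CSD, 1.89% higher and 6.52% lower at an unadjusted p under 0.05, and the median log2 fold change was -0.01. The list of other genes known to respond to glucocorticoids had 24 measured members, 12 higher and 12 lower, with a median of 0.00. At an unadjusted p under 0.05, 2 were lower and 1 higher. The phosphatase Dusp1 averaged 10.31 ± 0.17 in CSD and 10.74 ± 0.38 in HC mice (SD, n = 6 each; difference -0.43, limma adjusted p = 0.453), and Pdk4, a kinase that restrains pyruvate oxidation, differed by -0.17 (adjusted p = 0.457). The sulfotransferase Sult1a1 differed by 0.25 (adjusted p = 0.529). Klf9, the gene most like Sgk1, averaged 11.04 ± 0.16 in CSD and 11.04 ± 0.07 in HC mice (SD, n = 6 each).

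That list held as many higher as lower genes in CSD, and over all 12 mice many of its genes varied with Fkbp5, Tsc22d3 and Sgk1. An r over 0.5 with Fkbp5 was found for 17 of the 24 genes (70.8%), against 10.9% of all genes, and the median r was 0.602 against 0.157. With Tsc22d3 it was 12 genes (50%), against 10.2% of all genes, and with Sgk1 9 genes (37.5%), against 7.9%. The closest to Tsc22d3 were Sesn1 (r = 0.938), Klf9 (0.912), the transcription factor Zbtb16 (0.869) and Nfkbia, an inhibitor of NF-kappaB (0.856). Per1, a clock gene that is also induced by the receptor, had r = 0.19 with Tsc22d3 and 0.153 with Sgk1. Without CSD replicate 7, an r over 0.5 was found for 15 of the 24 genes with Fkbp5 (8.69% of all genes), 9 with Tsc22d3 (8.13% of all genes) and 8 with Sgk1 (6.42% of all genes). Among the 6 CSD mice alone the counts were 21 with Fkbp5 (87.5%, against 26.4% of all genes), 20 with Tsc22d3 (83.3%, against 30.6%) and 17 with Sgk1 (70.8%, against 30.8%). Among the 6 HC mice alone they were 13 with Fkbp5 (54.2%, against 31.3% of all genes), 5 with Tsc22d3 (20.8%, against 21.4%) and 4 with Sgk1 (16.7%, against 11.4%), so that with Tsc22d3 the share in HC mice was that of all genes. The median r of the list with Sgk1 was 0.769 in CSD mice, against 0.292 over all genes, and -0.343 in HC mice, against -0.32 over all genes. These correlations are over genes measured in the same mice and are a description with no test, and the genes are not independent of each other.

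**Figure D5:**
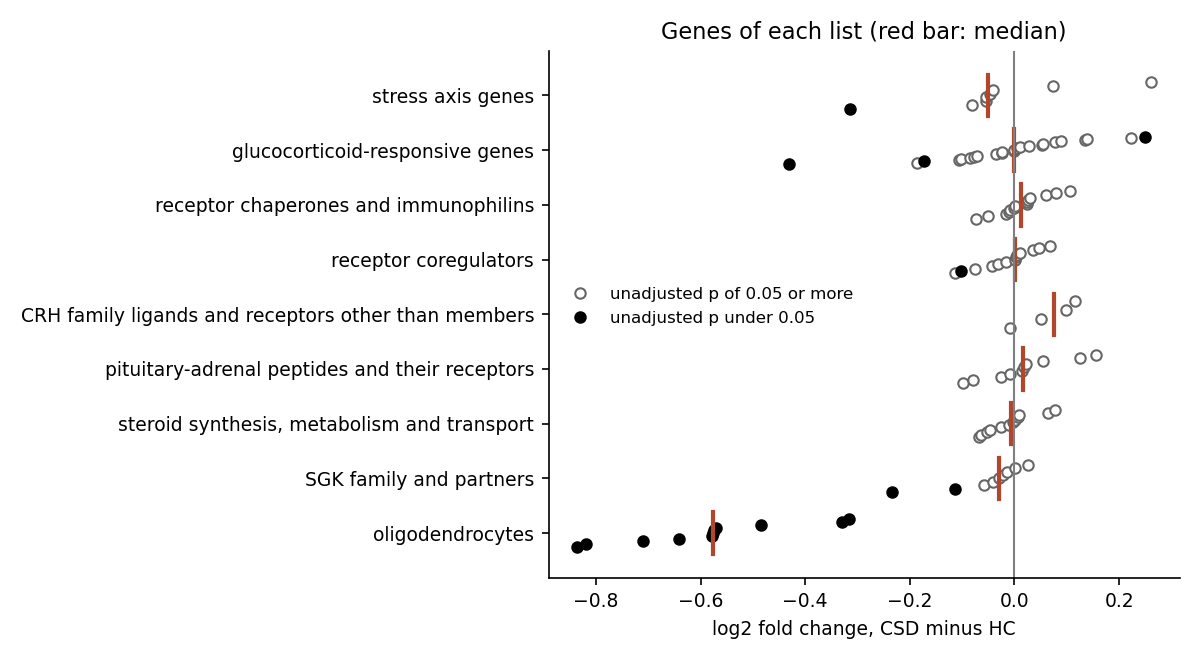
Log2 fold change of CSD minus HC for each gene of the stress axis set, the 7 pathway lists and the oligodendrocyte markers (filled points, unadjusted p under 0.05 in limma; red bars, medians). The oligodendrocyte markers lie to the left with a median of -0.58, while the medians of the other lists lie between -0.05 and 0.08.

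Among the proteins that hold the receptor ready for hormone no difference passed the test: of 14 chaperones and immunophilins 8 were higher and 6 lower, with 0 at an unadjusted p under 0.05 in limma, and the ones with the smallest p were the co-chaperones Ahsa1 (difference 0.08, adjusted p = 0.802) and Stip1 (0.06, adjusted p = 0.824). Of 13 coregulators, which the receptor recruits at its targets, 1 was lower at an unadjusted p under 0.05, the histone deacetylase Hdac1 (-0.10, limma adjusted p = 0.561), followed by the coactivator Ncoa3 (-0.11, adjusted p = 0.594). Among the 9 relatives and partners of Sgk1, 7 were lower and 2 higher, and 2 were lower at an unadjusted p under 0.05. These were Ndrg1, a substrate of the kinase that is also abundant in oligodendrocytes (10.23 ± 0.16 in CSD and 10.47 ± 0.11 in HC mice, SD, n = 6 each; -0.23, limma adjusted p = 0.386), and the scaffold Slc9a3r2 (-0.11, adjusted p = 0.476).

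The other peptides and enzymes of the axis had 0 members at an unadjusted p under 0.05 in limma. Of the 4 other members of the corticotropin-releasing hormone family 3 were higher and 1 lower, led by the urocortins Ucn (0.10, adjusted p = 0.750) and Ucn2 (0.12, adjusted p = 0.771). The 10 measured pituitary and adrenal peptides and receptors had 6 higher and 4 lower members, led by Adcyap1r1, the receptor of the peptide PACAP (-0.08, adjusted p = 0.698), and the oxytocin receptor Oxtr (0.13, adjusted p = 0.725). Of 12 genes of steroid synthesis, metabolism and transport 5 were higher and 7 lower, led by Akr1c14, which reduces steroids (-0.07, adjusted p = 0.651), and Cyp17a1, a steroid hydroxylase (-0.06, adjusted p = 0.879), both near the noise level.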

How the data were processed

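The 9 genes and the gene lists were chosen with earlier results of these data known. The authors deposited log2 values for 12 arrays, which they had normalized and summarized by RMA (Affymetrix Expression Console, versions not given in the sources used here). System noise was taken as the 20th percentile of all values, since the LOWESS curve (span 0.2) of the methods was not linear below the median. The filter removed 5718 probe sets with no value above it. In the 29838 others, 4.67% of values were set to it. By the platform annotation, 21789 probe sets had 1 gene, 1621 had several genes and 12146 had no gene. The brightest probe set of a gene was used, which gave 17656 genes. CSD minus HC was tested over all kept probe sets with limma 3.58.1 in R 4.3.3 (two-sided, Benjamini-Hochberg), and single genes with exact permutation over 924 splits. The methods' t-test was an alternative. The limma p-value of a difference sets it against its standard error. That error is estimated from the spread between these mice, for which limma also draws on all probe sets.

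Correlations used values minus group means and 100000 resamples over 36 relations (28 pairs of genes and 8 with the oligodendrocyte list, since Crh did not pass the filter). Named are the 9 genes, the 2 smallest p of each pathway list, the 1 smallest p of each marker list, the 3 genes most like Sgk1, Fkbp5 and Tsc22d3, and genes that a count of 5 or fewer singles out. The genes named by their correlation with Tsc22d3, the spread ratios, and the within-array differences with the genes named for them were chosen after their values were seen. Alternatives were no floor, no filter, noise 1 log2 unit higher, single-gene probe sets, median centring, quantile normalization, trend and robust estimation, array weights, a replicate block, and leaving out arrays. The numbers in the titles name mice and do not pair them. The test was checked on simulated data. Promoter sequences are from RefSeq (GRCm38.p6). No array batch is given, and an array has no read depth, so the number of arrays limits the precision. Plots were made in Python 3.11.15 (matplotlib 3.10.9).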

Additional observations from a re-analysis of the deposited data

Results flagged for a closer look

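In 2 of the 18 sets of 6 values examined for a single far mouse (9 genes, each group), 1 mouse lay farther from the others than Dixon's 95% critical value allows, where chance gives about 1 in 20. The Hsd11b1 value of HC replicate 1 was 7.873, against 7.455 to 7.607 in the other HC mice. The Crhr1 value of HC replicate 2 was 9.374, against 8.991 to 9.101 in the other HC mice, and that array also had the highest median of all. Whether the array median had a part in it was not tested.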

How the results depend on the processing

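Over the 23 alternatives run for each fold change, 181 of 184 values kept their direction, and the adjusted p stayed above 0.05 in all 184. Sgk1 lay between -0.40 and -0.24, with an unadjusted p of 0.00146 to 0.0422 and an adjusted p of 0.268 to 0.654, and Fkbp5 lay between 0.17 and 0.36. The sign turned for Crhr1 without HC replicates 2 and 6 together (0.0055) and with single arrays left out (-0.067 to 0.0093, positive without HC replicate 2), and for Hsd11b1 with single arrays left out (-0.067 to 0.017, positive without HC replicate 1). Leaving out single arrays also moved the number of genes higher at an unadjusted p under 0.05 between 0 and 1 (Fkbp5, without CSD replicate 6), Tsc22d3 between 0.0025 and 0.13 (lowest without CSD replicate 7), and the correlation of Fkbp5 and Sgk1 between 0.503 and 0.789. With the replicate block Sgk1 was -0.30 and Fkbp5 0.29, and the block changed no call; arrays of both groups share only the numbers 2 and 6, whose deviations correlated at -0.21 and -0.04, so the numbers were not taken as pairs.

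The 0 probe sets called became 21 with only single-gene probe sets tested, 1 with quantile normalization, 14 with trend and robust estimation, and 406 at an unadjusted p. Of the correlations, that of Fkbp5 and Tsc22d3 missed an unadjusted p of 0.05 in HC mice alone (0.567), that of Sgk1 and Tsc22d3 in HC mice alone (0.627) and without the 2 farthest arrays (0.633), that of Fkbp5 and Sgk1 without the 2 farthest arrays (0.638), in CSD mice alone (0.781), in HC mice alone (0.183) and without CSD replicate 7 (0.503), and that of Nr3c1 with the oligodendrocyte list in CSD mice alone (0.657). Sgk1 with the oligodendrocyte list passed it in HC mice alone (0.976). For these, and for the count of calls, the cause was not tested, other than that a group alone holds 6 mice. The mean over all probe sets of a gene was not run, since each gene has 1. Leaving out single arrays, centring and quantile normalization for correlations and for Crh were chosen after seeing the data.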

Other observations

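Beyond oligodendrocytes, the marker lists are given with the gene of smallest p in each, its log2 fold change and its limma adjusted p. For comparison, 6.52% of all 17656 measured genes were lower at an unadjusted p under 0.05. Counts of 1 or 2 in such short lists are too small to be set apart from that share. Of 8 oligodendrocyte precursor and lineage genes 4 were lower at an unadjusted p under 0.05, led by the transcription factor Olig2 (-0.33, adjusted p = 0.0986). The other 4, Pdgfra (0.01), Cspg4 (0.04), Tnr (0.10) and C1ql1 (0.03), were slightly higher, 0 of them at that threshold. Of 12 clock genes 3 were lower at that threshold, led by Dbp (-0.33, adjusted p = 0.145). Of 8 astrocyte markers 2 were lower at it, led by S100b (-0.18, adjusted p = 0.383), and of 9 immediate early genes 1 was, Junb (-0.25, adjusted p = 0.494). The lists of endothelial cells (Tek, -0.21, adjusted p = 0.313), microglia (P2ry12, -0.14, adjusted p = 0.561), striatal neurons (Drd1, -0.16, adjusted p = 0.476), and choroid plexus and ependyma (Tmem212, -0.23, adjusted p = 0.546) each had 1 lower gene at that threshold. Oligodendrocytes were led by Mog (-0.84, adjusted p = 0.0986).

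The lists of inhibitory neurons, which include the cells that make Crh in the cortex (Sst, -0.06, adjusted p = 0.734), excitatory cortical neurons (Rorb, -0.09, adjusted p = 0.790), pericytes and smooth muscle (Pdgfrb, -0.04, adjusted p = 0.875), meningeal fibroblasts (Col1a1, 0.09, adjusted p = 0.763), hypothalamus (Trh, 0.11, adjusted p = 0.797) and red blood cells (Alas2, 0.14, adjusted p = 0.801, the 1 gene measured) had 0 genes at an unadjusted p under 0.05 in limma.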
